A study of Drosophila melanogaster with 6 samples.

Results

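The proteasome is the protease complex that degrades ubiquitin-tagged proteins, and its subunit genes were examined here in whole stage 11 Drosophila embryos. Members were all probe sets that name 1 gene whose current symbol starts with Rpn, Rpt, Prosalpha or Prosbeta, and 40 genes of the 11982 covered by probe sets of 1 gene met this rule, each with 1 probe set. They comprise 12 genes of the core particle, 14 of the regulatory particle and 14 paralogs. The study compared 3 independent collections of wild type (WT) Oregon R embryos with 3 independent collections of embryos mutant for fkh[6], an allele of fork head (fkh), the single Drosophila FoxA transcription factor gene. Both groups were collected and aged at 25 C to stage 11, carry the strain label Oregon R, and passed through an embryo sorter before RNA extraction, and RNA of each collection was hybridised to its own Affymetrix Drosophila Genome 2.0 array. Each array measured RNA of whole embryos pooled within a collection, so cells that do not use fkh contributed to every value.

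In the core particle, 2 outer rings of alpha subunits gate the entry of substrates and 2 inner rings of beta subunits cut them. The regulatory particle caps the core: its base holds a ring of Rpt ATPases, which unfold substrates and open the gate, together with the large scaffold subunits Rpn1 and Rpn2 and the ubiquitin receptor Rpn13, and its lid holds further Rpn subunits, among them Rpn11, which removes the ubiquitin chain. Drosophila also has duplicated subunit genes, marked by a T or R after the subunit number. They are known mostly for use in the male germ line of the testis, where the alpha6 paralog Prosalpha6T serves the making of sperm.

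Among the 48 Drosophila genes with such symbols in the RefSeq gene table, 8 are not analysed here because no probe set named them alone. They are Prosalpha1, Prosbeta1, Rpn9, Rpn10, Rpt1 and Rpt6, and the paralogs Prosalpha1R and Rpt6R. All values are log2 values as normalized by the authors with RMA, a method that corrects background, gives the arrays one common distribution and summarizes the probes of a probe set. Levels of different genes were not compared, because probe sets differ in brightness for the same amount of RNA. Groups were compared by limma over all 18769 probe sets, and a gene was called lower or higher in fkh mutants at an adjusted p under 0.05 (Benjamini-Hochberg) and a fold change over 1.4. Over the whole array, 6.13% of probe sets were called lower by this test and 6.19% were called higher.

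Some facts of the arrays touch all results below. Transcripts of fkh itself were at 10.23, 10.11 and 10.28 in WT and at 10.83, 10.62 and 10.64 in fkh mutants, so that the mutated gene itself was called higher (log2 fold change 0.49, adjusted p = 0.012 from limma). What the fkh[6] lesion does to the transcript is not given in the sources used here, so this level checks nothing about the labels. All 9 measured markers of stage 11 tissues were above the low-signal range described below in both groups, but 3 of them were called: the endoderm gene GATAe (5.18-fold) and the hindgut gene byn (2.27-fold) were lower in fkh, and the neuroblast gene mira (1.49-fold) was higher. Replicates were closer to each other in WT than in fkh, with median SDs over probe sets of 0.0751 and 0.146. The median log2 fold change over all probe sets was -0.08, and 67% of them were below 0. Genes of late differentiation were far higher in fkh mutants, with 9 of 10 muscle genes and 11 of 11 cuticle genes called higher, and summed muscle levels of 9.95 to 10.08 in WT and 12.11 to 13.73 in fkh (log2). A difference in age between the collections and an effect of the mutation cannot be told apart in this design, nor can fewer cells of a type and less RNA per cell.

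Most proteasome genes did not pass the test in either direction. Of the 40 genes, 4 were called lower in fkh mutants and none higher, which is 10% lower against 6.13% of all probe sets. By the adjusted p alone 5 were lower and 1 higher, where 9.56% of all probe sets were lower and 7.42% higher. The 4 were Prosbeta4 in the core, the ATPase Rpt5 and the scaffold Rpn2 in the regulatory particle, and the paralog Rpt3R. In limma, the 95% interval of the fold change lay within 1.4-fold in both directions for 30 of the 40 genes, against 64.5% of all probe sets. These were 18 of the 26 core and regulatory genes and 12 of the 14 paralogs, whose probe sets were mostly dim. Only 1 of the 4 changes, that of Rpt3R, exceeded 2-fold.

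**Figure D1:**
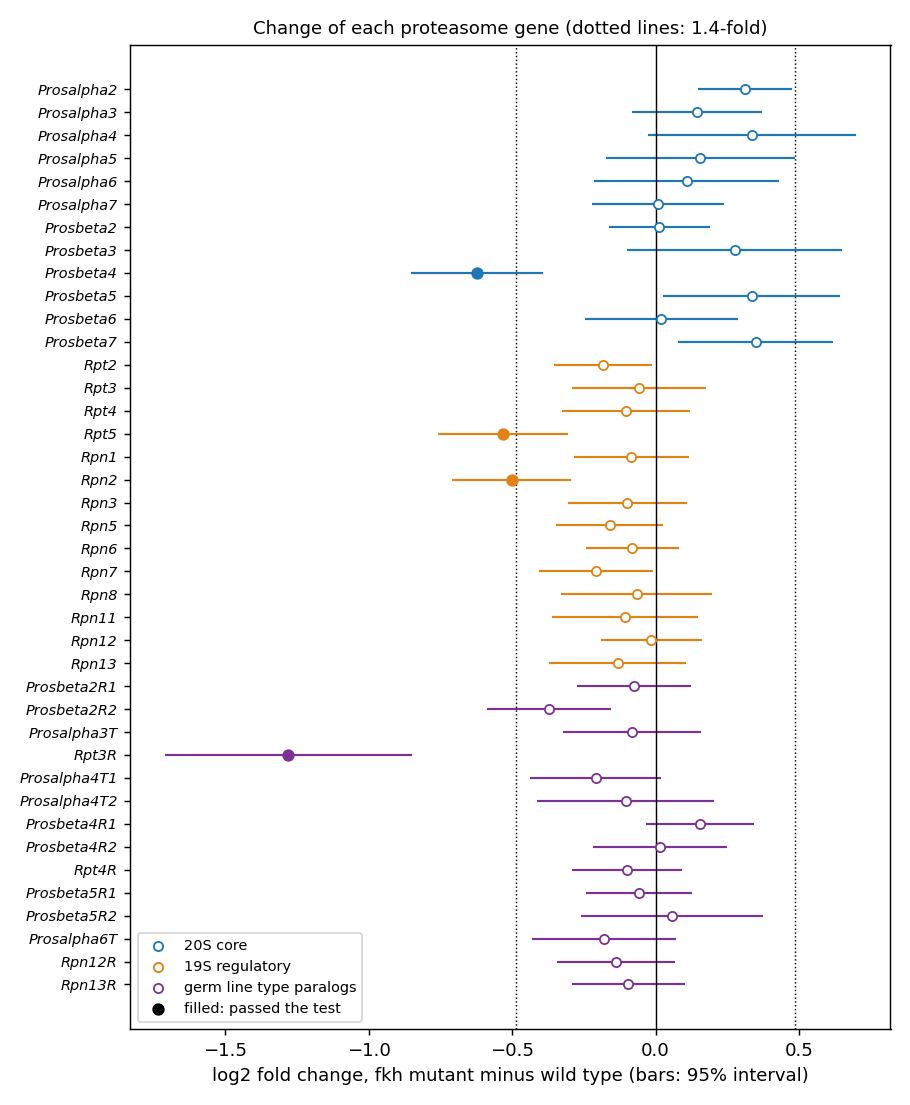
The log2 fold change of each of the 40 proteasome genes (fkh mutant minus wild type, 3 arrays each) is plotted with its 95% interval from limma. Filled points passed the test, and dotted lines mark 1.4-fold. Of the 12 core genes 11 lie above 0 (7 with array weights). All 14 regulatory genes lie below 0 (10 with cyclic loess, and 4 after ribosomal protein scaling, which raised fkh values as a whole).

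The core particle showed 1 lower gene and 11 genes that were not called, where 6.13% of all probe sets were lower and 6.19% higher. Prosbeta4, a beta ring subunit with no protease activity of its own, was at 11.65, 11.73 and 11.79 in the 3 WT arrays and at 10.95, 11.25 and 11.10 in the 3 fkh arrays. The highest fkh array was below the lowest WT array. Prosbeta4 thus fell by 0.62 on the log2 scale (standard error 0.10, 95% interval -0.85 to -0.39, adjusted p = 0.0065 from limma), a 1.54-fold decrease. Its direction stands against the other 11 core genes, which had log2 fold changes of 0.0075 to 0.35. The median over the 12 core genes was 0.15, against -0.08 for all probe sets. A value above 0 was found in 11 of 12 core genes and in 33% of all probe sets.

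Among the alpha subunits, Prosalpha2 came closest to a call. It was at 10.58, 10.68 and 10.62 in WT and at 10.90, 10.98 and 10.95 in fkh, without overlap. Its log2 fold change of 0.31 (standard error 0.07) had an adjusted p of 0.024 in limma but lay under the fold minimum. Prosalpha4, with the largest value in this ring, was at 10.12, 10.43 and 10.28 in WT and at 10.45, 10.93 and 10.45 in fkh. These groups were set apart only narrowly, and the gene was not called (log2 fold change 0.34, standard error 0.15, adjusted p = 0.19 from limma). Prosalpha7, with the smallest value, was at 11.21, 11.25 and 11.27 in WT and at 11.14, 11.44 and 11.18 in fkh, with fkh arrays on both sides of the WT arrays (95% interval of the log2 fold change -0.22 to 0.24). Prosalpha3, Prosalpha5 and Prosalpha6 had log2 fold changes of 0.14, 0.16 and 0.11, and their groups overlapped.

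Of the catalytic beta subunits, Prosbeta2 and Prosbeta5 were measured. Prosbeta2 carries the trypsin-like activity and was at 11.85, 11.87 and 11.88 in WT and at 11.79, 11.91 and 11.95 in fkh. Its log2 fold change was 0.01 with a 95% interval of -0.16 to 0.19 in limma, so that a change of 1.4-fold lies outside the interval. Prosbeta5 carries the chymotrypsin-like activity and was at 11.11, 11.07 and 11.06 in WT and at 11.14, 11.47 and 11.65 in fkh. All fkh arrays were above all WT arrays, but fkh replicate 1 only just. The log2 fold change of 0.33 (standard error 0.13) did not pass the test (adjusted p = 0.13 from limma).

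Prosbeta7 had the largest positive value of all members. It was at 11.44, 11.54 and 11.46 in WT and at 11.59, 11.98 and 11.92 in fkh, again without overlap. The log2 fold change was 0.35 (standard error 0.11) with an adjusted p of 0.084 in limma. Prosbeta3 ranged from 11.30 to 11.70 in WT and from 11.52 to 12.04 in fkh, and Prosbeta6 from 11.11 to 11.33 and from 11.13 to 11.46, so that the groups overlapped in both. Calls in this ring depended on the scaling of the arrays: after the arrays were shifted to equal medians of ribosomal protein probe sets, Prosbeta5 and Prosbeta7 were called higher (log2 fold changes 0.50 and 0.51, adjusted p = 0.045 and 0.023 from limma) and Prosbeta4 was no longer called lower (-0.46, adjusted p = 0.019). That setting equalized the median level of ribosomal protein probe sets, not their median change. Relative to WT, the median over 41 ribosomal protein genes was then 0.162, 0.137 and 0.160 in fkh replicates 1, 2 and 3. As deposited it was 0.003, -0.014 and -0.024. The setting thus raised fkh values as a whole and did not hold these genes level. It moved the median of all probe sets to 0.09 and the share of higher genes among all calls from 50.2% to 73.8%. Cyclic loess moved this share to 65.3%.

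In the regulatory particle 2 of 14 genes were called lower and none higher, where 6.13% of all probe sets were lower and 6.19% higher. Transcripts of Rpt5, an ATPase of the base, were at 11.67, 11.49 and 11.56 in WT and at 11.10, 10.89 and 11.14 in fkh. The groups did not overlap, and Rpt5 fell by 0.53 on the log2 scale (standard error 0.10, adjusted p = 0.011 from limma), a 1.44-fold decrease. Rpn2, the scaffold that holds the ubiquitin receptor Rpn13, was at 11.16, 10.95 and 11.04 in WT and at 10.64, 10.47 and 10.53 in fkh. It fell by 0.50 on the log2 scale (standard error 0.09, adjusted p = 0.010 from limma), a 1.41-fold decrease without overlap.

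Both falls lay near the fold minimum, and both calls were lost without WT replicate 1, without WT replicate 3 and without fkh replicate 2. Rpt5 then had log2 fold changes of -0.48, -0.54 and -0.45, and Rpn2 of -0.45, -0.51 and -0.46. Without WT replicate 3 both stayed over the fold minimum and missed only the adjusted p (0.054 and 0.052 from limma). Without fkh replicate 2 both passed the adjusted p (0.018 and 0.024 from limma) and missed the fold minimum. Without WT replicate 1 both missed the fold minimum and the adjusted p (0.057 and 0.051 from limma). Cyclic loess (-0.46 and -0.41) and the ribosomal protein scaling (-0.37 and -0.34) also took both genes out of the calls, and array weights took out Rpn2 (-0.44). All of these log2 fold changes were below 0.

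The other ATPases were not called. Rpt2 was at 11.16, 11.06 and 11.13 in WT and at 10.99, 10.92 and 10.88 in fkh, without overlap (log2 fold change -0.18, standard error 0.07, adjusted p = 0.14 from limma). Rpt3 had the value nearest to 0 among the ATPases, with WT arrays at 11.49, 11.34 and 11.35, fkh arrays at 11.36, 11.18 and 11.47, and a log2 fold change of -0.06 (95% interval -0.29 to 0.18). Rpt4 was at 10.66, 10.96 and 10.86 in fkh, where replicate 1 was the lowest, and at 10.90 to 10.97 in WT.

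The remaining Rpn genes had small negative values, and none of them was called. In the base, Rpn1 and Rpn13 had log2 fold changes of -0.08 and -0.13. In the lid, the scaffold subunit Rpn7 had the lowest value: it was at 10.95, 10.79 and 10.85 in WT and at 10.74, 10.56 and 10.67 in fkh (log2 fold change -0.21, standard error 0.08, adjusted p = 0.15 from limma). Rpn12 lay closest to 0 (log2 fold change -0.01, 95% interval -0.19 to 0.16), with WT arrays at 11.53 to 11.60 and fkh arrays at 11.46 to 11.61. The deubiquitinase Rpn11 ranged from 11.17 to 11.35 in WT and from 11.03 to 11.37 in fkh, so that the groups overlapped (log2 fold change -0.11). Rpn3, Rpn5, Rpn6 and Rpn8 lay between -0.16 and -0.07. For all 7 lid genes the 95% interval in limma stayed within 1.4-fold in both directions, as it did for 12 of the 14 regulatory genes and 6 of the 12 core genes.

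**Figure D2:**
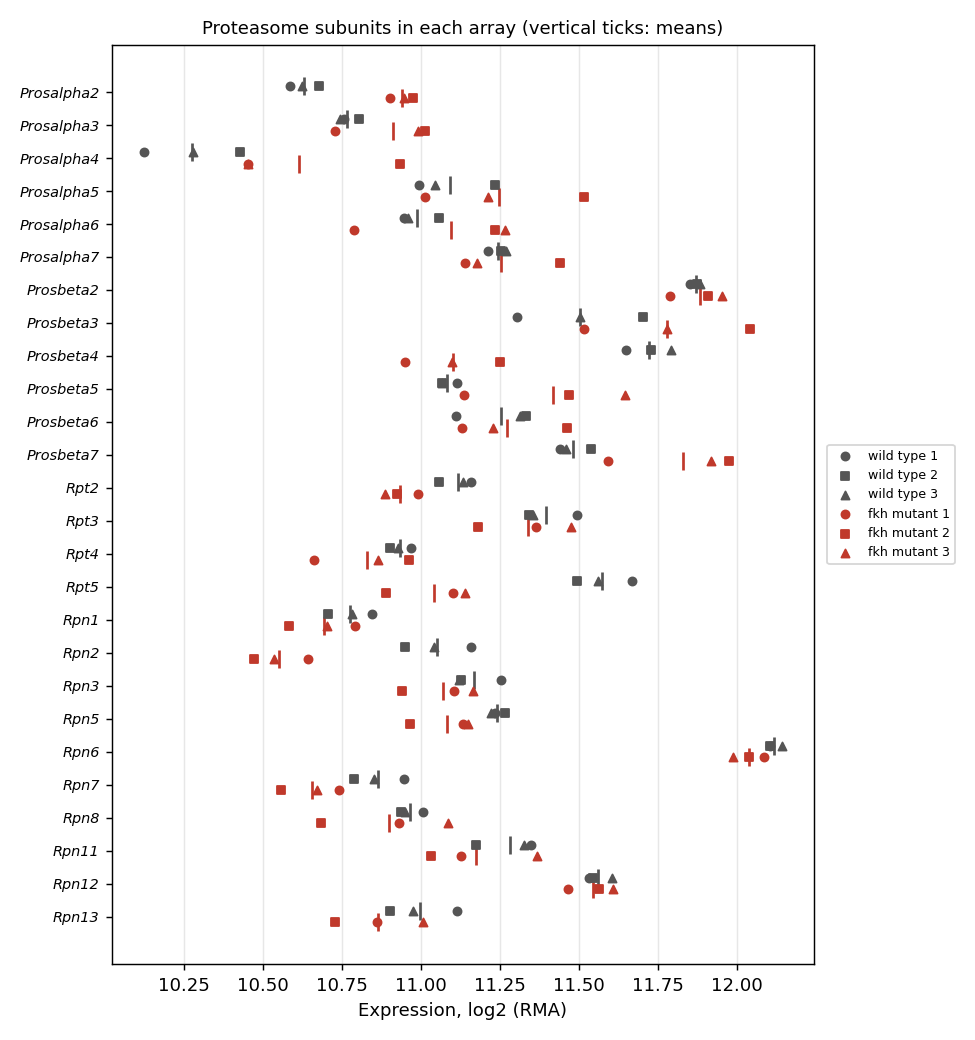
Expression (log2, RMA) of the 26 core and regulatory genes in each of the 3 wild type arrays (grey) and 3 fkh arrays (red), with group means as vertical ticks. The groups do not overlap for 7 genes that are lower in fkh, among them the called Prosbeta4, Rpt5 and Rpn2, and for 4 that are higher. The red points of most core genes are more widely spread than the grey ones.

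The regulatory particle as a whole had a median log2 fold change of -0.11, close to the -0.08 of all probe sets. All 14 of its genes were below 0, but so were 67% of all probe sets, and this count turned on the scaling. With cyclic loess 10 of the 14 were below 0 (median -0.03), and with ribosomal protein scaling 4 of the 14 (median 0.058). After the latter the median of all probe sets was 0.09, and ribosomal protein genes had medians of 0.14 to 0.16 in the fkh arrays relative to WT. A value above 0 in that setting is therefore no rise against those genes. For the core, 11 of its 12 genes were above 0 under either scaling, with medians of 0.23 and 0.31. With array weights, which let arrays that deviate less count for more, only 7 of the 12 core genes were above 0 and the core median was 0.025, while all 14 regulatory genes were below 0 with a median of -0.14. Groups without overlap were found in 5 core genes (4 higher in fkh, 1 lower) and in 6 regulatory genes (all lower), where 13.5% of all probe sets had every fkh array above and 25.1% every fkh array below the WT arrays. Whether the 2 particles differ in their response was not tested, since genes are not replicates of a condition.

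Both particles also varied between arrays of 1 group. When each gene was set relative to its own WT mean, the median over core genes was -0.06, 0.30 and 0.20 in fkh replicates 1, 2 and 3. In fkh replicate 1 all 12 core genes were at their lowest of the 3 mutant arrays, against 25.9% of all probe sets. Without this array the core median was 0.27, with 11 of 12 genes above 0, and without fkh replicate 2 it was 0.066, with 9 of 12. The regulatory medians were -0.12, -0.24 and -0.07 in the same arrays, where those of all probe sets were -0.08, -0.13 and -0.004. Here fkh replicate 2 held the lowest mutant value for 10 of 14 regulatory genes, against 45.8% of all probe sets. It held the highest for 9 of 12 core genes, against 22.5% of all probe sets. WT arrays varied less but in the same opposed way: WT replicate 2 was above WT replicate 1 in 11 of 12 core genes and below it in 12 of 14 regulatory genes, where the median difference over all probe sets was -0.01.

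The difference between the core and the regulatory median was thus -0.11, 0.11 and 0.01 in the WT arrays and 0.06, 0.54 and 0.27 in the fkh arrays. The fkh replicate 1 value lies inside the WT range, while those of replicates 2 and 3 lie above it. This difference does not depend on a shift of whole arrays, and after cyclic loess it was 0.06, 0.55 and 0.28 in the fkh arrays. The 2 transcript groups below also varied among the fkh arrays. Like this difference they were highest in replicate 2, but they were lowest in replicate 3 and not in replicate 1. The median of 29 maternally loaded genes relative to WT was 0.08, 0.66 and -0.16 in fkh replicates 1, 2 and 3, with 1 gene called lower, none higher and summed levels (log2) of 14.05 to 14.18 in WT and 13.79 to 14.36 in fkh. For 10 muscle genes it was 3.83, 4.35 and 2.51. The part of either group in the proteasome values was not tested.

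**Figure D3:**
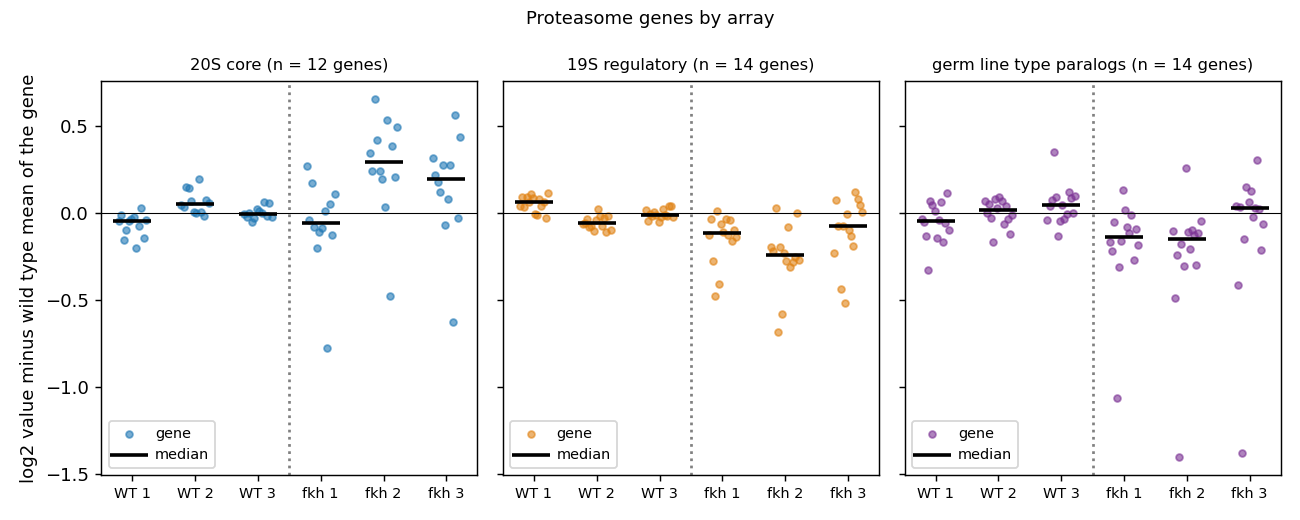
Each point is a gene, as its log2 value minus its own wild type mean, in each of the 6 arrays, for the core, the regulatory particle and the paralogs, with black bars as medians. Core medians of fkh replicates 2 and 3 (0.30 and 0.20) lie above 0 and all 3 regulatory medians of the mutants (-0.12, -0.24 and -0.07) below it. Medians of all probe sets, not drawn, were -0.08, -0.13 and -0.004 in the fkh arrays.

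The paralogs had dim probe sets in both genotypes. To describe low signal on these arrays, 112 genes for odorant and gustatory receptors, which serve mature sensory neurons, were used: in WT the 5th to 95th percentiles of their levels were 3.95 to 5.52, and in fkh 3.87 to 5.12. Of the 14 paralogs, 13 were at or under the upper bound in WT and 12 in fkh. Those above it in fkh were Prosbeta2R1 and Prosalpha4T2, because the fkh bound is lower. Their means were lower in fkh than in WT (5.16 against 5.24 and 5.31 against 5.41). In this range background makes up an unknown share of a value, and folds carry little meaning in either direction.

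Rpt3R, a paralog of the ATPase Rpt3, was the 1 paralog above this range in WT and the only paralog called. It was at 5.95, 6.25 and 6.63 in WT and at 5.21, 4.87 and 4.90 in fkh, so that the WT arrays were spread but every one was above all mutant arrays. Rpt3R fell by 1.28 on the log2 scale (standard error 0.18, 95% interval -1.71 to -0.85, adjusted p = 0.0047 from limma), a 2.43-fold decrease. All 3 mutant values lie within the low-signal range of WT, so the fold is set against a signal that may hold few transcripts or none. The value of fkh replicate 1, 5.21, was above the upper bound of the fkh range, 5.12. The call was lost in a test without pooling of the spread (adjusted p = 0.057). Its parent gene Rpt3 was not called, as given above.

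The other 13 paralogs were not called. Prosbeta2R2 was at 4.90, 4.95 and 4.99 in WT and at 4.73, 4.46 and 4.54 in fkh (log2 fold change -0.37, adjusted p = 0.034 from limma), under the fold minimum and within the low-signal range. Prosbeta4R1 had the largest positive value, with 4.21, 4.23 and 4.15 in WT and 4.33, 4.46 and 4.26 in fkh (log2 fold change 0.15, standard error 0.08, adjusted p = 0.24 from limma). Prosalpha4T2 ranged from 5.29 to 5.50 in WT and from 5.11 to 5.56 in fkh. Prosalpha6T ranged from 5.10 to 5.24 and from 4.85 to 5.18, and Prosalpha4T1 from 4.81 to 5.06 and from 4.66 to 4.83. Prosbeta2R1 was at a mean of 5.24 in WT and 5.16 in fkh, Rpt4R at 5.15 and 5.05, and Rpn12R at 4.93 and 4.79. Prosalpha3T, Rpn13R, Prosbeta4R2, Prosbeta5R1 and Prosbeta5R2 had WT means of 4.15 to 4.71 and log2 fold changes of -0.10 to 0.06.

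**Figure D4:**
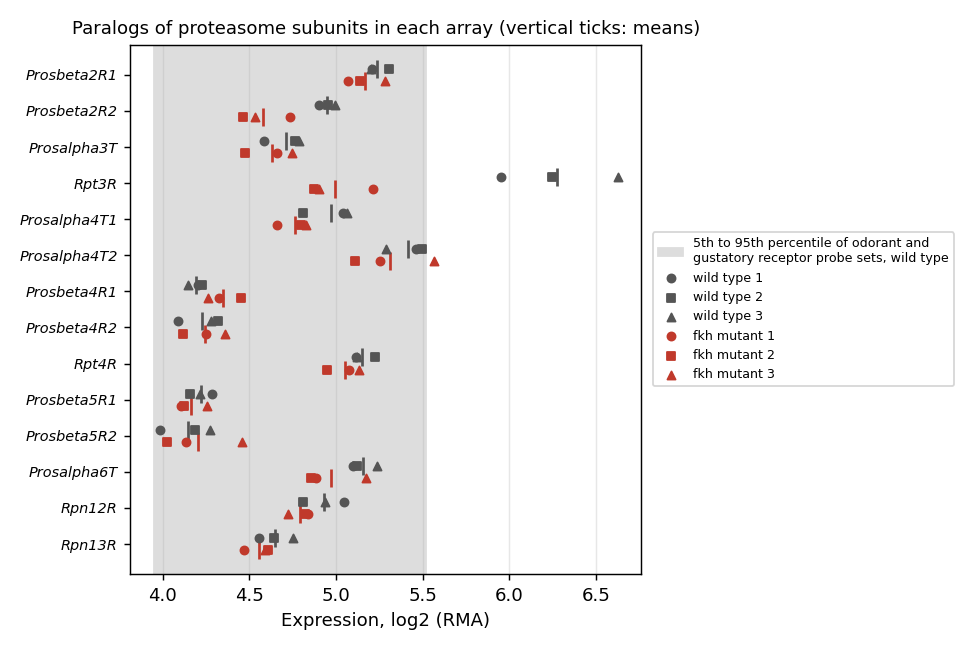
Expression (log2, RMA) of the 14 paralogs in each array, with group means as vertical ticks and the 5th to 95th percentile of receptor probe sets in wild type (3.95 to 5.52) shaded. Rpt3R alone lies to the right of the shaded range in wild type, at 5.95 to 6.63, and its mutant values of 4.87 to 5.21 lie within it.

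The median log2 fold change over the 14 paralogs was -0.10, the same as for the 112 receptor genes, of which 3 were called lower. With cyclic loess it was -0.015, and with ribosomal protein scaling 0.067. Markers of the male germ line were mostly dim as well: of 18 measured, 4 were above the receptor range in WT (mia, bol, twe and bam) and 5 in fkh. Mst98Ca was added in fkh because the fkh bound is lower, although its mean fell from 5.50 to 5.23. The median log2 fold change of the 18 was -0.10. Their summed levels (log2) were 10.45 to 10.61 in WT and 10.15 to 10.43 in fkh. In WT mia was the brightest of the 18 and weighs most in these sums, which do not describe the other markers. Only mia among these 18 was called, and it fell from between 9.07 and 9.26 in WT to between 7.88 and 8.39 in fkh (log2 fold change -1.10, adjusted p = 0.0031 from limma). The part of germ line cells in the value of Rpt3R was not tested.

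By the RefSeq gene table (Release 6), 12 of the 40 genes lie on chromosome arm 3R, which also carries fkh, and 3 of the 4 called genes (Rpt5, Rpn2 and Rpt3R) are among them. Of all 3R probe sets that name 1 gene, 9.63% were called lower. The other called gene, Prosbeta4, lies on 2L, where 6.42% were called lower. None of the 9 genes on 2R, 6 on 3L and 5 on X was called. Of all probe sets naming 1 gene on these arms, 6.92%, 8.56% and 5.12% were called lower. The shares called higher were 7.9%, 8.67% and 7.54%.

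Other genes of the ubiquitin-proteasome pathway were also mostly not called. Of 34 listed genes 27 were measured, with 1 lower, 1 higher and a median log2 fold change of -0.01. Uch, a deubiquitinase, rose from 7.52, 6.83 and 7.55 in WT to 8.78, 9.20 and 8.32 in fkh, a 2.76-fold increase without overlap (log2 fold change 1.46, standard error 0.27, adjusted p = 0.012 from limma). CG8858, the homolog of the yeast proteasome adaptor Ecm29, fell from 6.55, 6.63 and 6.82 to 6.25, 6.30 and 5.86 (log2 fold change -0.53, standard error 0.14, adjusted p = 0.042 from limma). A further 4 genes passed the adjusted p but not the fold minimum and were looked at after their values were seen. The ubiquitin-conjugating enzyme Ubc6 had a log2 fold change of 0.36. The others were negative: Plap, a cofactor of the unfoldase TER94, had a log2 fold change of -0.41, the proteasome activator REG -0.33 and TER94 itself -0.29.

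The lid subunit Sem1 and the core assembly factor Pomp had log2 fold changes of -0.09 and -0.14 and were not called. Like cnc and Ubi-p63E below, they were named after their values were seen. cnc, the fly homolog of the vertebrate factors that activate proteasome genes, was at 7.64, 7.72 and 7.71 in WT and at 7.73, 7.64 and 7.68 in fkh, so that the groups overlapped fully (log2 fold change -0.01). The polyubiquitin gene Ubi-p63E was at 12.97, 13.02 and 12.76 in WT and at 13.25, 13.13 and 13.61 in fkh, without overlap. Its log2 fold change of 0.42 missed the adjusted p (0.093 from limma).

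The 26 core and regulatory genes had 3 called lower and none higher, with a median log2 fold change of -0.06. The shares of all probe sets were 6.13% lower and 6.19% higher. Genes of other large complexes were taken by symbol alone. Of 41 ribosomal protein genes 4 were lower and none higher, with a median of -0.0037. Of 31 vacuolar ATPase genes none was lower and 2 were higher, with a median of -0.04. Unlike the 26 genes, these sets kept dim members. Their lowest WT means were 4.81 for ribosomal protein and 4.36 for vacuolar ATPase genes, within the low-signal range. The sets are therefore not matched. The median SD among fkh arrays was 0.190 for the core, 0.110 for the regulatory particle and 0.039 for the ribosomal proteins, against 0.146 for all probe sets. Ribosomal protein probe sets were brighter, with a median WT level of 13.94 against 11.17 for the core and 11.14 for the regulatory particle. These SDs are therefore not matched for brightness.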

How the data were processed

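The authors scanned Affymetrix Drosophila Genome 2.0 arrays and normalized them with RMA in Partek (versions not given in the sources used here), and the deposited values are log2 expression for 18769 probe sets with no missing value. A base of 2 is the one RMA gives. No detection call was used, and precision is limited by the number of arrays. Probe sets were named with the platform annotation and brought to current symbols with RefSeq (assembly Release 6): 13647 named 1 gene, 402 several and 4720 none. A gene with several probe sets was represented by the brightest. For the comparison of genotypes all 6 arrays entered lmFit and eBayes (limma 3.58.1, R 4.3.3) without covariates, and p-values were adjusted over all probe sets; the fit was tested on simulated data. Tables were made with Python 3.11.15 and pandas 2.3.3. The members and lists were chosen with earlier results of these data known. Every member could be named, with full statistics for called members, for the extremes of each subgroup and for the catalytic subunits. Of the other pathway genes, called ones were to be named, and those named without a call were chosen after their values were seen. Lists covered stage 11 tissues, germ line, testis, maternal, muscle, cuticle and pathway genes. Of the germ line list 5 genes were measured and none was called. Alternatives were no moderation, a variance trend, array weights, cyclic loess, ribosomal protein scaling, leaving out dim probe sets, a replicate block, leaving out each array, other fold minimums and the mean of the probe sets of a gene. Promoters and proteins were not analysed here.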

Additional observations from a re-analysis of the deposited data

How the results depend on the processing

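Of the 4 proteasome genes called lower in fkh mutants, 2 were called without moderation of the spread (Prosbeta4 and Rpn2) and 2 after cyclic loess (Prosbeta4 and Rpt3R), 1 after ribosomal protein scaling and 1 at a fold minimum of 2 (Rpt3R in both), and 2 to 4 when 1 array was left out. With no fold minimum 5 were lower and 1 higher. None was called higher otherwise, except 2 after ribosomal protein scaling. That scaling raised fkh values as a whole relative to WT, those of ribosomal protein genes included. It moved the median log2 fold change of the core to 0.31, of the regulatory particle to 0.058 and of the paralogs to 0.067. Cyclic loess moved that of the paralogs to -0.015. Array weights lowered the core median from 0.15 to 0.025, with 7 of 12 core genes above 0, and called 3 proteasome genes lower (all but Rpn2). Leaving out 1 array gave medians of 0.07 (without fkh replicate 2) to 0.27 (without fkh replicate 1) for the core, -0.16 to -0.07 for the regulatory particle and -0.14 to -0.05 for the paralogs. For single genes, 614 of the values under alternatives kept their side of the test, 17 lost the call, 4 gained one and 0 were called in the opposite direction. The cause of these changes was not tested. Without the dimmest 25% of probe sets 35 of the 40 genes could be tested. Deviations from the group mean correlated at 0.072, 0.073 and -0.079 between WT and fkh arrays of the same replicate number. Between arrays of different numbers they correlated at -0.15 to 0.095. These values show no pairing by number but cannot settle whether there was one. With the replicate number as a block 4 proteasome genes were lower and none higher.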

Other observations

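The COP9 signalosome is built much like the proteasome lid and removes Nedd8 from cullin ubiquitin ligases. Its genes were looked at after the proteasome values had been seen. Of 9 measured CSN genes, 1 was called lower and none higher, with a median log2 fold change of -0.03. The shares over all probe sets were 6.13% lower and 6.19% higher. CSN8 was at 10.62, 10.49 and 10.62 in WT and at 10.09, 9.98 and 10.08 in fkh, a 1.44-fold decrease without overlap (log2 fold change -0.52, standard error 0.08, adjusted p = 0.0053 from limma). CSN5, the catalytic subunit, had a log2 fold change of 0.02 (adjusted p = 0.91).

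The probe set shared by Prosalpha1 and its paralog Prosalpha1R names both genes and was left out of the members. It was at 11.32, 11.35 and 11.40 in WT and at 11.22, 11.50 and 11.47 in fkh (log2 fold change 0.04, adjusted p = 0.83 from limma), with fkh replicate 1 the lowest of the mutant arrays, as in the core genes.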
